A study of Mus musculus with 3 samples.

Results

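The 7 genes Gnas, Arrb1, Arrb2, Grk3, Rgs2, Pde4b and Pde4d, which act below beta-adrenergic and other cAMP-coupled receptors, were followed across the cell classes of mouse blood. They were taken by gene symbol from the 31053 genes of the deposited matrix, and all 7 were found there, with 347 UMIs or more each over the cells analysed. A UMI (unique molecular identifier) stands for 1 captured RNA molecule. Blood of C57/BL6J mice was taken from a control group (Con, 0 h) and after 24 h (SD24h) and 48 h (SD48h) of sleep deprivation, red cells were lysed, and the leukocytes of 3 mice per group were pooled into 1 droplet library. The deposited barcodes carry 3 endings, called libraries 1, 2 and 3 here, and no label says which ending is which group. No effect of sleep deprivation was therefore estimated, none of the 3 served as a control, and p-values are not given. What can be read are levels by cell class, repeated in 3 libraries, and the spread between the libraries. None of the 7 genes encodes a receptor, so the label of beta-adrenergic signalling covers steps that many receptors share.

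Noradrenaline and adrenaline act on leukocytes through beta-adrenergic receptors, which switch on the stimulatory G protein. Its alpha subunit, encoded by Gnas, activates adenylyl cyclase, and the cAMP formed acts through protein kinase A and EPAC. The signal is shut off at several steps. Receptor kinases such as Grk3 phosphorylate the occupied receptor, the beta-arrestins Arrb1 and Arrb2 bind it and uncouple it, Rgs2 dampens G protein signalling, and the phosphodiesterases Pde4b and Pde4d break down cAMP. In leukocytes cAMP is known for restraining inflammatory responses and cell migration.

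Libraries 1, 2 and 3 held 8815, 6648 and 6741 barcodes, of which 6695, 5619 and 5438 were kept as cells. Clusters built without the 7 genes and without the other pathway genes were named from marker lists, giving 5 classes: NK-like, T-like, B-like, monocyte-like and neutrophil-like cells. Library 1 stood apart from the others. It had 541 neutrophil-like cells, against 3138 and 1968 in libraries 2 and 3, and 528 of its 541 lay in a cluster that held 106 and 62 cells of libraries 2 and 3. Platelet marker RNA was also higher in library 1 in each class. The 10 platelet markers, all detected, summed, in libraries 1, 2 and 3, to 16786, 5159 and 4316 CPM for neutrophil-like and to 5939, 2175 and 2017 CPM for monocyte-like cells. CPM are the summed UMIs of a gene per 1000000 UMIs of a class in a library. Between 8 and 18 barcodes of kept cells were shared by each pair of libraries. Intervals in brackets are exact 95% intervals, Poisson for a level and conditional for a ratio, and reflect the counting of molecules only, leaving out any difference from mouse to mouse.

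Levels of the members differed between the cell classes. Arrb2 was highest in neutrophil-like and Grk3 in monocyte-like cells, while for Rgs2 and Arrb1 which of these classes led differed between libraries. Pde4b was highest in B-like cells, Pde4d in T-like cells and Gnas, found in all classes, in NK-like cells. These last 3 leads did not exceed counting error in each library. A gene was counted as having 1 leading class when the same class was highest in all 3 libraries and the interval of its ratio to the next class excluded 1 in each. This held for 2 of the 7 genes, Arrb2 and Grk3, against 20.7% of the 13237 genes measured with 20 UMIs or more. Among the 9320 genes with at least as many UMIs as the least counted member the share was 24.5%, so 2 of 7 is near the background. When library 1 was left out, 4 of 7 met the rule in the other 2 libraries, against 27.1% of all genes under that easier rule, with Arrb1 leading in monocyte-like and Pde4b in B-like cells besides.

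**Figure D1:**
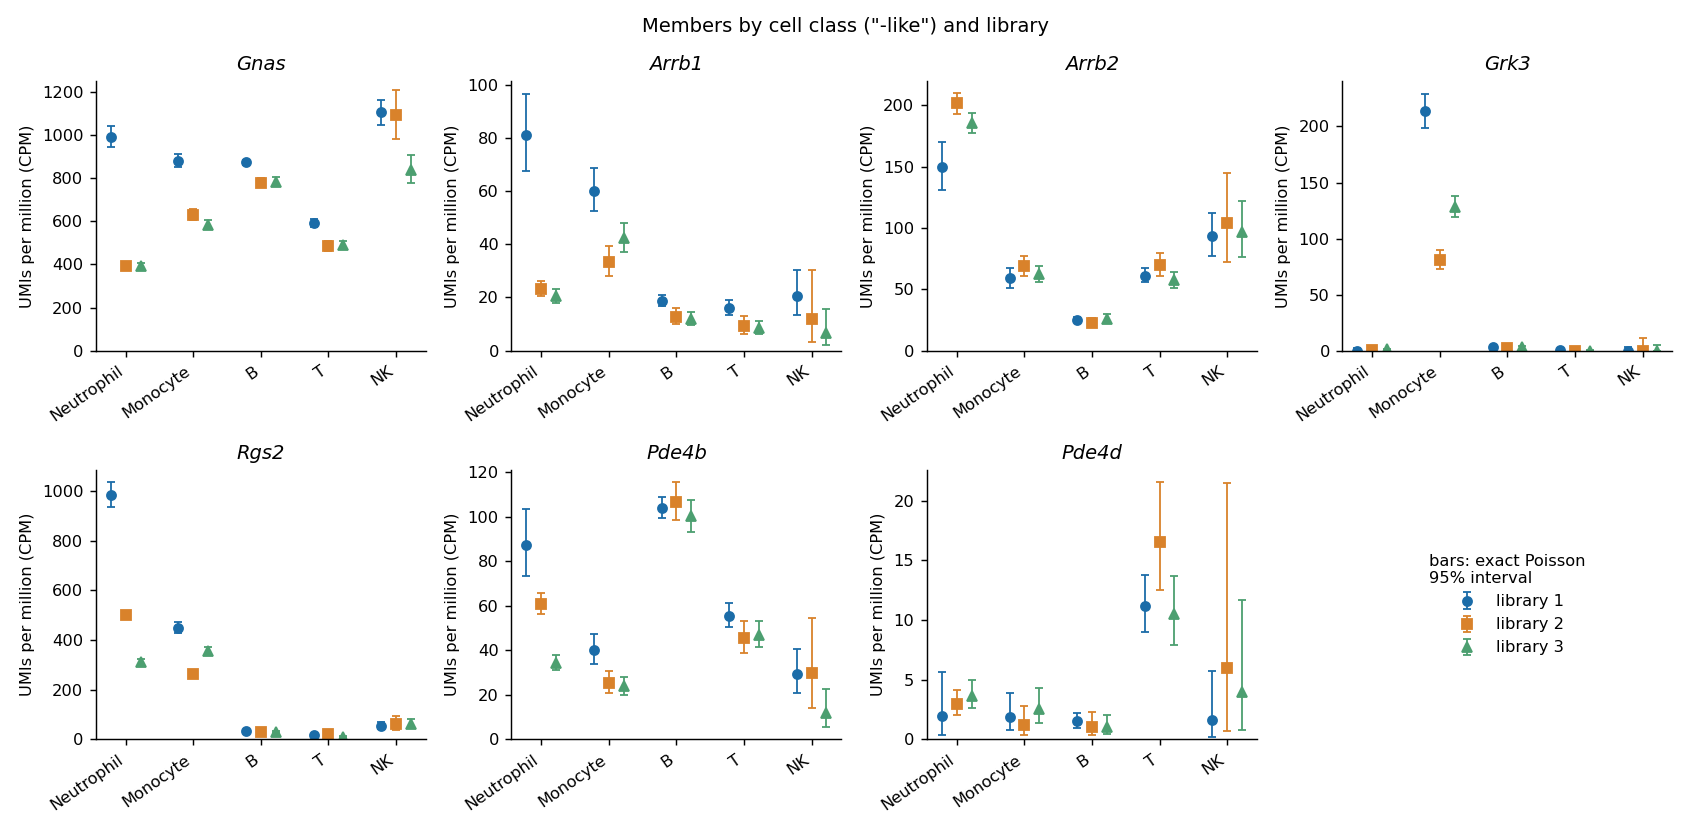
Level of each member in CPM (vertical axis, linear, from 0, each panel on its own scale) in 5 cell classes, with a marker per library and bars for the exact Poisson 95% interval. In the monocyte-like class Grk3 lies at 81.0 to 214 CPM, with 3.39 CPM as the highest value elsewhere, and Pde4b is near 100 CPM in B-like cells of all 3 libraries.

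Gnas, which encodes the stimulatory G protein alpha subunit, was expressed in every class. Its gene lies on chromosome 2 from 174284320 to 174346744 on the plus strand (GRCm38, GENCODE M21), and since counts come from the 3' end, its alternative transcripts cannot be told apart here. Gm20721, a gene model on the opposite strand, overlaps its 3' end, and whether strand was used in counting is not stated in the sources, so the value of Gnas is uncertain to that extent. NK-like cells of libraries 1, 2 and 3 held 1104, 1090.3 and 839 CPM of Gnas. B-like cells held 872, 779 and 783 CPM and T-like cells 591, 485 and 489 CPM. NK-like cells were highest in each library, except that neutrophil-like cells led in libraries 1 and 3 under TMM (trimmed mean of M-values) scaling, which allows for a few very abundant genes. B-like cells led in libraries 1 and 3 under the stricter cell filter. That filter left 192, 204 and 331 B-like cells in libraries 1, 2 and 3, in place of 4067, 1403 and 1966. In the main setting the ratio of NK-like to B-like cells in library 3 was 1.07 (0.985 to 1.16). Monocyte-like cells held 879, 629.8 and 583 CPM. Neutrophil-like cells held 991, 390.2 and 394 CPM, second of the 5 classes in library 1 and lowest in libraries 2 and 3. Gnas was the only member among the 144 genes that followed platelet RNA over single cells. The correlation of its log-scaled level with the mean log-scaled level of the platelet markers was 0.361, a description over cells with different depths. In a B-like cluster with 14798 CPM of platelet markers, led within its class by Tubb2a and Lmna and followed by platelet genes such as Clec1b and Gp5, Gnas was at 1284, 1265 and 1298 CPM, against 834, 766 and 760.0 CPM in the other B-like clusters. Of the genes measured in B-like cells, 2.85% were higher in that cluster in every library. Among neutrophil-like cells, the cluster that held most of library 1 was led within its class by the B cell and antigen presentation genes Cd74, H2-Ab1, H2-Aa, Ebf1 and Cd79a, and held 15626 CPM of platelet markers. It had 591 and 655 CPM of Gnas in libraries 2 and 3, against 387 and 393 CPM in the other neutrophil-like clusters, and 1.03% of genes were higher there in both. In T-like cells the differences were small. The cluster led by Ccl5 had 635, 569.6 and 554 CPM, against 579.5, 475 and 481 CPM in the others, and the cluster with Cd4 among its leading genes 567, 436 and 465 CPM, against 609.8, 538 and 507 CPM. Of all genes, 2.57% were higher in the first and 3.6% lower in the second in every library.

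The beta-arrestins, which uncouple and internalise activated receptors, had different patterns. Arrb2 (chromosome 11, 70432635 to 70440828, plus strand) was highest in neutrophil-like cells at 149, 202 and 186 CPM. NK-like cells followed at 93.7, 104 and 97.2 CPM, T-like cells at 61.3, 69.8 and 57.3 CPM and monocyte-like cells at 59.1, 68.7 and 62.2 CPM, while B-like cells held 25.4, 22.7 and 25.8 CPM. The ratio of neutrophil-like to NK-like cells was 1.59 (1.27 to 2.01), 1.94 (1.39 to 2.79) and 1.91 (1.51 to 2.45) in libraries 1, 2 and 3, and the ratio of T-like to monocyte-like cells could not be told from 1 in any of them. In T-like cells Arrb2 reached between 30.9% and 41.0% of its neutrophil-like level. The median of 11 neutrophil markers there was between 0.0527% and 0.234% of theirs. In monocyte-like cells Arrb2 reached between 33.5% and 39.5%. These markers had a median between 1.42% and 2.45% there, and a maximum between 13.7% and 18.2%. What part RNA from other cells had in these values was not tested.

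Arrb1 (chromosome 7, 99535466 to 99606771, plus strand) was a gene of both myeloid classes. Neutrophil-like cells held 81.1, 23.3 and 20.4 CPM, and monocyte-like cells 60.2, 33.3 and 42.3 CPM, so neutrophil-like cells led in library 1 by 1.35 (1.08 to 1.69) and monocyte-like cells in libraries 2 and 3 by 1.43 (1.16 to 1.76) and 2.07 (1.72 to 2.50). In B-, T- and NK-like cells it lay between 6.66 and 20.6 CPM, and the intervals of the ratios between neighbours among these 3 classes included 1. With all cells used, library 1 was the highest in each of the 5 classes. In cells with 5 to 15 platelet marker UMIs per 1000 this held for the 2 myeloid classes only. There the ratio of library 1 to the lowest library was 3.00 (lower bound 2.03) in neutrophil-like and 1.18 (lower bound 0.665) in monocyte-like cells. In those cells library 2 was the highest in the B- and NK-like classes and library 3 in the T-like class. In libraries 2 and 3 the order of the 2 myeloid classes depended on the scaling: with TMM scaling neutrophil-like cells led in all 3 libraries.

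Grk3, the receptor kinase, was nearly restricted to monocyte-like cells. Its gene lies on chromosome 5 from 112910482 to 113015791 on the minus strand. Monocyte-like cells held 214 (199 to 229), 81.0 (72.7 to 90.1) and 128 (119 to 138) CPM in libraries 1, 2 and 3. B-like cells, the next class, held 3.39, 2.11 and 2.96 CPM, and the ratio was 63.0 (48.5 to 83.1), 38.4 (21.7 to 75.1) and 43.3 (28.6 to 68.7). Not 1 UMI was found in the 291, 80 and 154 NK-like cells, where 3 UMIs would equal 2.38, 8.91 and 3.99 CPM. Of the monocyte-like cells, 67.2%, 40.1% and 52.1% had a UMI of Grk3, against 1.23%, 0.713% and 1.12% of B-like cells and 0.244%, 0% and 0% of T-like cells. Median depth was 8712, 10931 and 11440 UMIs in monocyte-like cells and 3923, 3791 and 3584 UMIs in B-like cells. With each cell thinned to 1500 UMIs the shares were 28.4%, 14.3% and 21.7% in monocyte-like cells and 0.126%, 0.222% and 0.369% in B-like cells.

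The monocyte-like class consisted of 2 clusters, and Grk3 differed between them several-fold. In 1 cluster Cd300e, Ace and Treml4, genes of patrolling (Ly6c-low) monocytes, were among the leading genes against the other, and it is called the Ace cluster. In the other Fn1, F13a1 and Ly6c2, genes of inflammatory monocytes, led, with Ccr2 among its leading genes against all cells, and it is called the Ccr2 cluster. Grk3 stood at 518, 359 and 346 CPM in the Ace cluster, against 84.8, 52.6 and 42.4 CPM in the Ccr2 cluster. The ratio was 6.11 (5.22 to 7.17), 6.82 (5.46 to 8.50) and 8.17 (6.86 to 9.79) in libraries 1, 2 and 3. Of all genes measured in monocyte-like cells 9.94% were higher in the Ace cluster in every library. Pde4b and Rgs2 were also among them. Pde4b stood at 70.8, 66.1 and 44.0 CPM in the Ace cluster and at 27.3, 21.1 and 15.8 CPM in the Ccr2 cluster, with ratios of 2.60 (1.86 to 3.64), 3.14 (1.93 to 4.93) and 2.78 (1.94 to 3.99). For Rgs2 the ratios were smaller, at 1.37, 1.40 and 1.61. Arrb1, Arrb2 and Gnas did not pass in all 3 libraries, and Pde4d had no UMI in the Ace cluster.

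**Figure D2:**
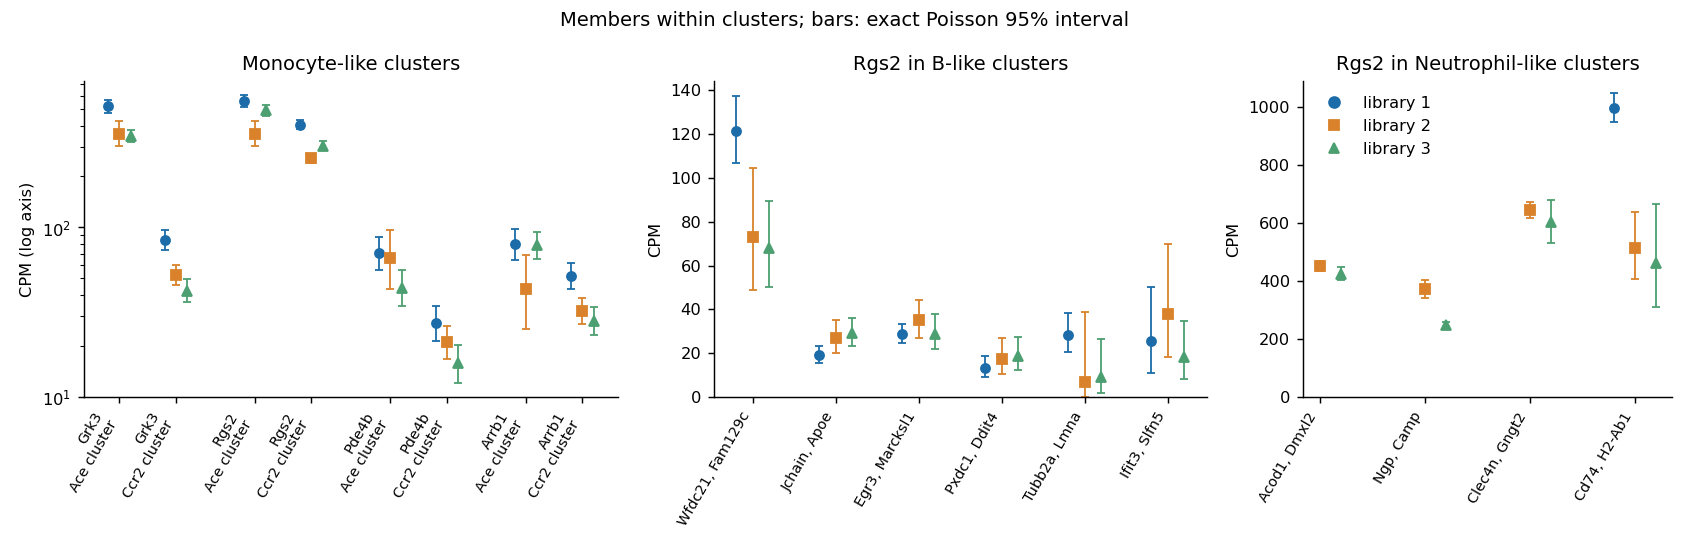
Left, Grk3, Rgs2, Pde4b and Arrb1 in the Ace and Ccr2 clusters of monocyte-like cells on a log axis of CPM. Middle and right, Rgs2 in the clusters of B-like and neutrophil-like cells on linear axes from 0, each cluster named by 2 leading genes, with a marker per library of 20 cells or more and bars for the exact Poisson 95% interval. Grk3 is 6.11 to 8.17 times as high in the Ace cluster, and Rgs2 reaches 121 CPM in the B-like cluster led by Wfdc21 and Fam129c.

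Rgs2, a GTPase-activating protein for G protein alpha subunits that is itself induced by cAMP in many cell types, was a gene of the myeloid classes. It lies on chromosome 1 from 143999338 to 144004161 on the minus strand. Neutrophil-like cells held 984, 501 and 313 CPM and monocyte-like cells 449.9, 265 and 357 CPM in libraries 1, 2 and 3. NK-like cells held 55.6, 62.4 and 61.3 CPM, B-like cells 34.5, 30.9 and 29.1 CPM and T-like cells 17.4, 22.5 and 11.1 CPM, and each step of this order exceeded counting error in each library. Neutrophil-like cells led monocyte-like cells by 2.19 (2.04 to 2.35) and 1.89 (1.77 to 2.02) in libraries 1 and 2, and monocyte-like cells led by 1.14 (1.08 to 1.21) in library 3. That last order turned with the scaling, since neutrophil-like cells led in all 3 libraries with TMM scaling and with totals that left out S100a8, S100a9, mitochondrial and haemoglobin UMIs.

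Within B-like cells Rgs2 marked 1 cluster. The cluster of 459, 89 and 165 cells led within the class by Wfdc21, Fam129c and Lynx1 held Rgs2 at 121, 72.8 and 67.8 CPM, against 23.1, 27.8 and 25.2 CPM in the other B-like clusters. The ratio was 5.26 (4.46 to 6.19), 2.62 (1.70 to 3.92) and 2.70 (1.92 to 3.72). Of the genes measured in B-like cells, 2.79% were higher in this cluster in every library, and Rgs2 was the only member among them. Akap12, an anchor protein of protein kinase A, was among the 8 genes that led this cluster. In another B-like cluster, led by Pxdc1, Ddit4 and Ccr6, Rgs2 was lower, at 13.4, 17.2 and 18.8 CPM, against 37.9, 34.2 and 31.6 CPM in the others, as were 1.56% of genes in every library.

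The only RefSeq promoter window of Rgs2, and 1 of the 4 windows of Pde4b, contain the core of the cAMP response element, the site of the transcription factor CREB through which cAMP acts on genes. The windows, which run from 250 bases before to 50 bases after a transcript start, are shown because Rgs2 and Pde4b both differed between clusters of neutrophil-like and monocyte-like cells. RefSeq windows (GRCm38.p6) were at hand for 4 of the 7 members, Rgs2, Pde4b, Pde4d and Gnas. Capitals mark the core, TGACG or its reverse complement CGTCA, searched on both strands.
Rgs2, chr1:144004100-144004399, minus strand: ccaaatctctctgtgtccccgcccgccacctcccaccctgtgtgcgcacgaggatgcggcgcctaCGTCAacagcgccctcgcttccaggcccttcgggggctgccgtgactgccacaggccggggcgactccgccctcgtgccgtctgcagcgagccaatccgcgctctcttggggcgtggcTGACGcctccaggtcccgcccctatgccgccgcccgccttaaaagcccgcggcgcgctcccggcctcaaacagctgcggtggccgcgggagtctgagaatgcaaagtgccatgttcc
Pde4b, chr4:102421305-102421604, plus strand: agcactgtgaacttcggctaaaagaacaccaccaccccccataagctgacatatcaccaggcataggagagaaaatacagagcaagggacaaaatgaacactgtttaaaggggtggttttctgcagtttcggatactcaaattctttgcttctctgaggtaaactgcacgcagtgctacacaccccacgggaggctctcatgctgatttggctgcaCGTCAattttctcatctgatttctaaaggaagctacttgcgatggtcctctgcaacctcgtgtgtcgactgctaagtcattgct
In the Rgs2 window the core occurs 2 times, its first letter lying 185 and 67 bases before the start, and in this Pde4b window once, 34 bases before. Of the 10 windows of members 5 hold the core, among them 3 of the 4 of Gnas, 2 of which overlap each other. The other 3 windows of Pde4b and the window of Pde4d hold none. The full palindrome TGACGTCA, which contains the core on both strands, occurs in none of the 10. Over all 32851 RefSeq windows, 20.8% hold the core and 1.79% the full palindrome. A match is a run of letters, not a site shown to be bound.

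Pde4b and Pde4d, the cAMP phosphodiesterases among the members, were highest in lymphoid classes. Pde4b (chromosome 4, 102087543 to 102607259, plus strand) reached 104, 107 and 100.3 CPM in B-like cells, against 87.6, 60.9 and 34.5 CPM in neutrophil-like and 55.7, 45.6 and 47.0 CPM in T-like cells. Monocyte-like cells held 40.2, 25.3 and 23.8 CPM and NK-like cells 29.4, 29.7 and 12.0 CPM. B-like cells led in each library, by 1.19 (0.998 to 1.42) over neutrophil-like cells in library 1, 1.75 (1.57 to 1.96) in library 2, and 2.13 (1.85 to 2.47) over T-like cells in library 3. Neutrophil-like cells were highest instead in library 2 under TMM scaling, and in library 1 under the stricter cell filter and in cells with 5 to 15 platelet marker UMIs per 1000. Within the T-like class Pde4b stood at 70.9, 51.5 and 52.6 CPM in the cluster with Cd4 among its leading genes and at 34.9, 27.0 and 16.2 CPM in the cluster led by Ccl5, and neither passed against its class in every library. Pde4d, on chromosome 13 from 108449948 to 109953461 on the plus strand, was the least counted member. It reached 11.2, 16.6 and 10.5 CPM in T-like cells and at most 5.94 CPM in any other class and library. T-like cells led in each library, by 5.79 (1.92 to 28.6) over neutrophil-like cells in library 1 and by 2.79 (0.737 to 23.6) and 2.63 (0.855 to 13.2) over NK-like cells in libraries 2 and 3, where NK-like cells held 2 and 3 UMIs.

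Between libraries, members differed mainly in neutrophil-like cells. A gene and class were counted as differing when the highest library exceeded the lowest by a ratio whose interval stayed at 1.5 or above. This held for 6 of 31 measured pairs of member and class, 4 of them in neutrophil-like and 2 in monocyte-like cells. Over all genes 10.9% of pairs met the rule, 36.9% in neutrophil-like, 10.5% in monocyte-like, 3.31% in B-like, 3.24% in T-like and 1.84% in NK-like cells. No member met it in B-, T- or NK-like cells, where 18 pairs were measured. Without library 1 it held for 2 of 27 measured pairs, Rgs2 and Pde4b in neutrophil-like cells, against 2.42% of all pairs and 8.59% of those in neutrophil-like cells.

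In neutrophil-like cells library 1 was the highest for Arrb1, Rgs2, Pde4b and Gnas. Its ratio to the lowest library was 3.98 (3.17 to 4.97) for Arrb1 and 3.14 (2.96 to 3.34) for Rgs2, with library 3 the lowest, and 2.54 (2.07 to 3.10) for Pde4b. For Gnas it was 2.54 (2.39 to 2.69), with library 2 the lowest. Arrb2 went the other way, with library 2 over library 1 at 1.35 (1.18 to 1.55). The same cells differed in other RNA. Beside the platelet markers given above, 13 of 13 B cell markers were detected and summed to 708, 157 and 86.5 CPM in libraries 1, 2 and 3, against 16422, 16786 and 16456 CPM in B-like cells, and S100a8 and S100a9 stood at 63978 and 60783 CPM in library 1 and between 117337 and 164910 CPM in libraries 2 and 3. With TMM scaling the ratios were 2.22 for Arrb1, 1.72 for Rgs2 and 1.62 for Gnas, Pde4b was highest in library 2 at 1.52 over library 3, and Arrb2 reached 2.26 for library 3 over library 1.

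Restricting the neutrophil-like cells to those with 5 to 15 platelet marker UMIs per 1000 left 221, 1150 and 581 cells with 10.8, 8.17 and 8.08 such UMIs per 1000. In these cells Gnas was at 758, 533 and 594 CPM, a ratio of 1.42 with a lower bound of 1.29, in place of 2.54. Rgs2 stayed at 987, 532 and 367 CPM, Arrb1 at 72.3, 25.9 and 24.1 CPM and Pde4b at 105, 66.1 and 47.5 CPM. What part the remaining differences in platelet and B cell RNA had in these values was not tested.

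Within the cluster that held 528 of the 541 neutrophil-like cells of library 1, the ratios of these 4 genes were smaller. It contained 106 and 62 cells of libraries 2 and 3, so these intervals are wide. Rgs2 stood at 998, 513 and 463 CPM there, with a highest to lowest ratio of 2.15 (1.49 to 3.23), and Gnas at 997, 591 and 655 CPM, a ratio of 1.69 (1.36 to 2.11). Arrb1 was at 81.0, 52.0 and 63.9 CPM, a ratio of 1.56 (0.767 to 3.69). Pde4b was highest in library 2, at 87.7, 97.4 and 63.9 CPM, a ratio of 1.53 (0.486 to 6.31). None of the 4 ratios had a lower bound of 1.5 or above. For Arrb2 the ratio was larger than in the whole class, at 1.80 (1.03 to 2.95), library 3 over library 1.

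**Figure D3:**
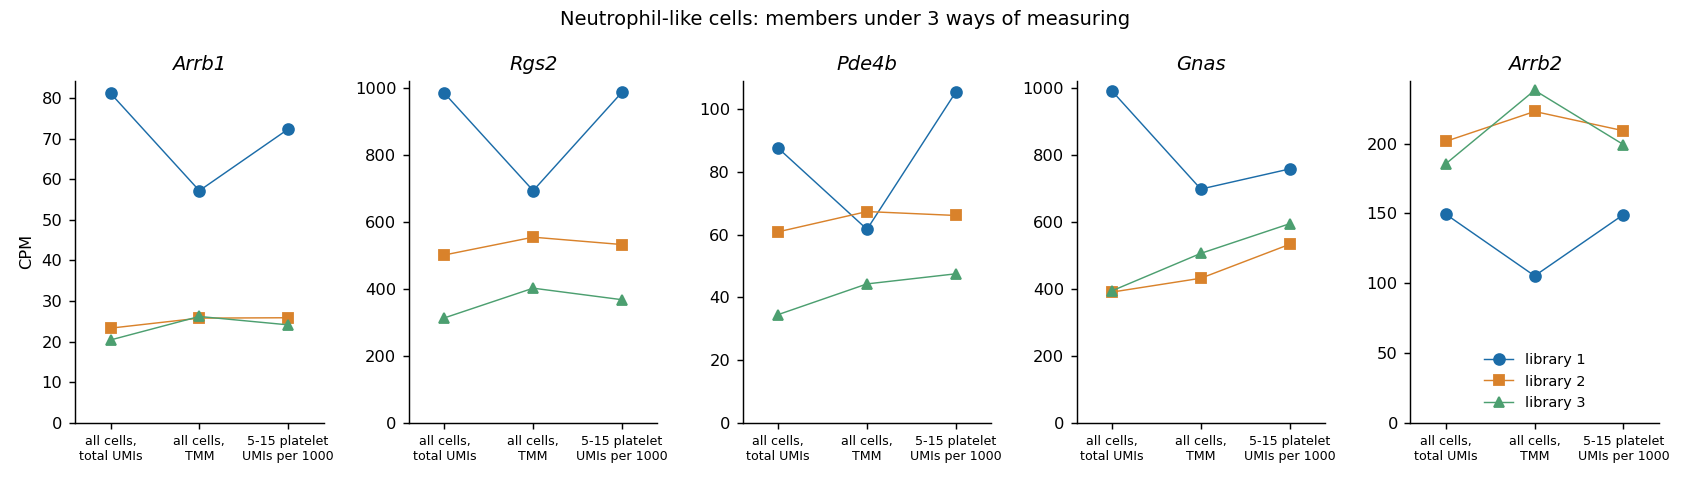
CPM of 5 members in neutrophil-like cells of each library (markers joined by lines), from all cells scaled by total UMIs, from all cells with TMM scaling, and from cells with 5 to 15 platelet marker UMIs per 1000. Axes are linear and start at 0. Gnas moves closest together in the third setting, at 533 to 758 CPM, while Arrb1 and Rgs2 remain highest in library 1 in each.

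Libraries 2 and 3 filled the other neutrophil-like clusters to different degrees, and Rgs2 and Pde4b differed between these clusters. The cluster led by Acod1 held 47.2% of the class in library 2 and 35.1% in library 3. A cluster led within the class by Ngp and Camp, granule genes of younger neutrophils, held 10.6% of the class in library 2 and 54.3% in library 3. A cluster led by Clec4n and Gngt2 held 38.8% and 7.47%. Rgs2 was at 645 and 603 CPM in the Clec4n cluster in libraries 2 and 3, against 437 and 301 CPM in the other neutrophil-like clusters, and Pde4b at 73.0 and 67.5 CPM, against 55.5 and 33.2 CPM. In the Ngp cluster Rgs2 was at 372 and 249 CPM, against 523 and 447 CPM in the others, and Pde4b at 36.1 and 23.9 CPM, against 65.1 and 56.7 CPM. All of these ratios excluded 1 in both libraries. So did 20% of all genes for higher values in the Clec4n cluster, Arrb2 and Gnas included, and 18.8% for lower values in the Ngp cluster, Gnas included. Arrb1, Grk3 and Pde4d passed in neither cluster. Over the whole class Gnas had a ratio of 1.01 (0.968 to 1.05), library 3 over library 2. Within clusters the same ratio of Gnas was 1.29 (1.21 to 1.38) in the cluster led by Acod1. It was 1.21 (1.05 to 1.39) in the Clec4n cluster and 1.05 (0.958 to 1.16) in the Ngp cluster. Between libraries 2 and 3, Rgs2 in the whole class differed by 1.60 (1.53 to 1.67). Within clusters library 2 over library 3 gave 1.07 (0.941 to 1.22) in the Clec4n cluster, 1.06 (0.996 to 1.14) in the cluster led by Acod1 and 1.49 (1.36 to 1.64) in the Ngp cluster. Library 1 had 7, 4 and 2 cells in these 3 clusters, too few for a value.

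In monocyte-like cells Grk3 differed by 2.64 (2.32 to 3.00) and Rgs2 by 1.70 (1.57 to 1.83), library 1 over library 2 in both. The Ace cluster made up 42.9%, 15.7% and 42.3% of monocyte-like cells in libraries 1, 2 and 3, so the class of library 2 held fewer cells of the cluster where both genes were higher. Within the Ace cluster the highest library exceeded the lowest by 1.496 (1.33 to 1.69) for Grk3 and by 1.55 (1.29 to 1.88) for Rgs2, and within the Ccr2 cluster by 2.00 (1.63 to 2.46) and 1.58 (1.45 to 1.73), with library 1 the highest in all 4. In both clusters the lowest was library 2 for Rgs2 but library 3 for Grk3, unlike in the whole class. In monocyte-like cells with 5 to 15 platelet marker UMIs per 1000, which numbered 222, 30 and 37, the ratio of Grk3 was 2.69 with a lower bound of 1.70. In B-, T- and NK-like cells no member met the rule, but some ratios were large with wide intervals. Rgs2 in T-like cells differed by 2.03 (1.42 to 2.91) and Arrb1 in NK-like cells by 3.10 (1.17 to 10.3). Pde4b in B-like cells differed by 1.07 (0.957 to 1.19) and Gnas in B-like cells by 1.12 (1.08 to 1.16).

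The other genes of the pathway were read from 10 lists with 91 genes, of which 81 were measured. Of these 29 had 1 leading class, 35.8% of the measured genes, with 16 in neutrophil-like, 4 in monocyte-like, 5 in B-like and 4 in NK-like cells and 0 in T-like cells. Over all genes the leading class was neutrophil-like for 5.42%, monocyte-like for 5.79%, B-like for 3.51%, NK-like for 3.4% and T-like for 2.52%. Of 8 measured Gs-coupled receptors 5 had 1 leading class. Adora2a, an adenosine receptor, led in NK-like cells at 64.3, 62.4 and 59.9 CPM, against at most 12.7 CPM elsewhere. Adora2b and the prostacyclin receptor Ptgir led in monocyte-like cells and the histamine receptor Hrh2 in neutrophil-like cells, at 36.7, 56.1 and 33.9 CPM. Adrb1, the beta-1 adrenergic receptor, had no leading class, at 10.3, 17.8 and 9.32 CPM in NK-like cells. Monocyte-like cells held 10.5, 2.36 and 7.32 CPM of it, and the other 3 classes 0.129 CPM or less.

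**Figure D4:**
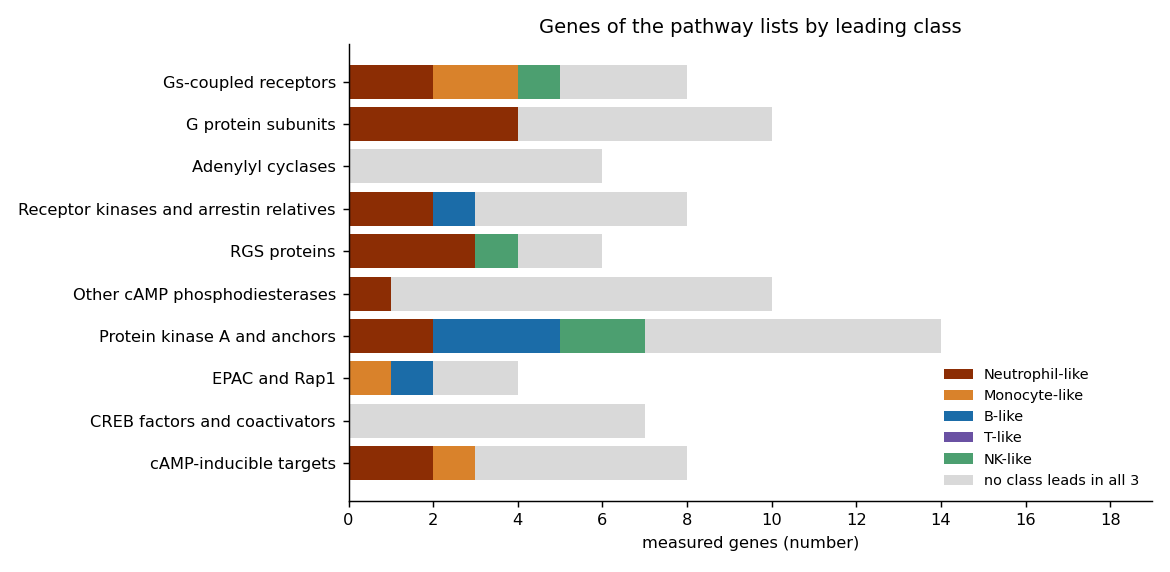
Number of measured genes of each pathway list (horizontal axis) by the class that leads in all 3 libraries, with grey for genes without 1 leading class. Neutrophil-like cells lead for 16 of 81 genes, and no adenylyl cyclase and no gene of the CREB list has a leading class.

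Among G protein subunits, the inhibitory Gnai2 and Gnai3 and the gamma subunits Gng5 and Gng12 led in neutrophil-like cells, Gnai2 at 1636, 1476 and 1274 CPM, against 1128, 1167 and 1187 CPM in monocyte-like cells. Of the relatives of the shut-off genes, no receptor kinase, arrestin relative or RGS protein had monocyte-like cells as its 1 leading class. The receptor kinase Grk5 was highest there in each library without passing the rule. It held 43.4, 32.1 and 34.8 CPM, against 31.6, 23.8 and 13.3 CPM in the next class. Pde1b, in neutrophil-like cells, was the only listed phosphodiesterase with 1 leading class, and the members Pde4b and Pde4d had none. Arrdc3, an arrestin-like adaptor, reached 217, 137 and 80.1 CPM in neutrophil-like cells, with 31.3 CPM as its highest value elsewhere, Grk6 led in B-like cells at 141, 159.8 and 155 CPM, and Rgs3, Rgs14 and Rgs18 led in neutrophil-like and Rgs1 in NK-like cells. Rgs18, known from platelets, differed between libraries in all 5 classes, being highest in library 1 in each, where platelet RNA was highest as well. Prkar2b, a regulatory subunit of protein kinase A, did so in 4. Both genes were among those that followed platelet RNA over single cells, with r of 0.299 for Rgs18 and 0.411 for Prkar2b. In B-like cells the protein kinase A inhibitors Pkib and Pkig led, Pkig at 219.6, 291 and 310.1 CPM, and in NK-like cells the kinase subunits Prkacb and Prkar1a. Of the 8 cAMP-inducible genes, Dusp1 and Fosl2 led in neutrophil-like cells and Nr4a1 in monocyte-like cells. Nr4a1, an early-response nuclear receptor needed for patrolling monocytes, held 219, 83.9 and 190.4 CPM there, lowest in library 2. Between libraries 51 of 323 pairs of list gene and class differed, or 15.8%, against 10.9% of pairs over all genes. In neutrophil-like cells it was 26 of 66, or 39.4%, close to the 36.9% over all genes. In monocyte-like cells it was 17.9% against 10.5% and in B-like cells 10.0% against 3.31%. T-like cells had 6.15% against 3.24% and NK-like cells 3.64% against 1.84%.

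Genes with the most similar pattern were sought over 15 points, 5 classes in 3 libraries, by Pearson correlation of log2(CPM + 5) among 7543 genes, and are given as a description, since the points share libraries. Closest to Grk3 were Tbc1d9, Nectin1 and Ldlrad3 (r of 0.994, 0.993 and 0.992), and closest to Rgs2 were Gnai2, Vav3 and Mapk14 (0.983, 0.980 and 0.979). Arrb2 was closest to Selplg, Sntb2 and Sema4a (0.974, 0.972 and 0.961) and Arrb1 to Creg1, Asap1 and Ndrg1 (0.965, 0.957 and 0.946). Gnas was closest to Bcap31, Tlk2 and Kpna1 (0.973, 0.939 and 0.929), Pde4d to Rgcc, Bcl11b and Klk8 (0.947, 0.935 and 0.928) and Pde4b to Rnf145, Aff4 and Rassf2 (0.916, 0.890 and 0.886).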

How the data were processed

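The deposited values are raw UMI counts per gene and cell from 3 droplet libraries (10x Genomics 3' v3 chemistry, per the labels' protocols), in a single matrix (31053 genes, 22204 barcodes), which Cell Ranger 6.0.2 wrote, per the file headers. Per the submitters' processing notes Trimmomatic 0.39, Cell Ranger 4.0.0, Seurat 3.0 and R 4.0.2 were used with GRCm38. Which Cell Ranger version made the counts, and the gene annotation, are not given in the sources used here. Libraries held 40807434, 30114546 and 36523283 UMIs.

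A minimum of 200 genes and a maximum of 10% mitochondrial UMIs left 18885 barcodes. Scrublet's automatic threshold marked 0.0983% of library 1, so the highest 6% of doublet scores were left out in each library instead, 1133 cells in all. The remaining 17752 cells were scaled to 10000 UMIs and clustered with scanpy 1.11.5 (2000 variable genes, 30 components, 15 neighbours, Leiden resolution 1, leidenalg 0.10.2) without the members, the pathway lists, immunoglobulin, T cell receptor, haemoglobin, mitochondrial and sex-linked genes, and without 144 genes that followed platelet RNA (r of 0.2 or more). A cluster took the name with most usable markers among its 10 leading genes, with 3 markers or more. This scoring, the doublet limit and the platelet step were set after the data were seen. Names end in "-like" because they rest on RNA markers.

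UMIs were summed per class and library and given per 1000000. All 7 members are named, as are list genes with 1 leading class or a difference between libraries, and the 3 genes most like each member. The members and lists were chosen with earlier results of these data known. No group was compared, since barcode endings are not tied to groups, and edgeR 4.0.16 was used only for TMM factors. The rules and intervals were checked on simulated counts drawn with counting error only. That check does not cover variation between cells, mice or libraries. Intervals cover counting error only. Alternatives were stricter cell filters, doublet-like cells kept, resolution 2, list genes kept in the clustering, TMM scaling, totals without abundant genes, no UMI minimum, equal weight per cell and, chosen after seeing the data, a band of platelet RNA and leaving out library 1. Sequences are from RefSeq (GRCm38.p6) and gene positions from GENCODE M21 (GRCm38).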

Additional observations from a re-analysis of the deposited data

How the results depend on the processing

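Across the 10 alternatives, 34 of 40 values of the 4 counts stayed within 1.5 times of the reported count. In cells with 5 to 15 platelet marker UMIs per 1000, members with 1 leading class numbered 1 in place of 2, list genes with 1 leading class 14 in place of 29, and pairs of list gene and class that differed between libraries 15 in place of 51. That setting keeps fewer cells, 13 NK-like cells in library 2 for example, which widens the intervals. Without library 1, members with 1 leading class numbered 4, pairs of member and class that differed 2 in place of 6, and pairs of list gene and class that differed 10. The rule then asks for agreement of 2 libraries. Of 70 median log2 ratios of a member's leading class to the next one, 55 stayed within the counting interval and 15 moved. Arrb2 led in neutrophil-like and Grk3 in monocyte-like cells in each library under all 10 alternatives. Under TMM scaling the median log2 ratio was -0.17 for Arrb1 and -0.20 for Gnas, where the leading class changed in some libraries. The filter of 500 genes and 5% mitochondrial UMIs left 192, 204 and 331 B-like cells in libraries 1, 2 and 3. Under it Gnas was at -0.004, and B-like cells led in libraries 1 and 3. The cause was not tested. No paired analysis was possible because each group has 1 library and the endings carry no replicate number. Depth limits Pde4d most, and NK-like cells of library 2, where 3 UMIs equal 8.91 CPM.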
